A study of Mus musculus with 2 samples.

Results

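The 10 genes described here encode the 5 subunits of the transcription factor NF-kappaB (Nfkb1, Nfkb2, Rela, Relb and Rel) and 5 proteins that restrain or modify it (Nfkbia, Nfkbie, Nfkbiz, Tnfaip3 and Bcl3). They are defined by symbol and role. Each array probe was assigned to a gene through its RefSeq accession, which gave 14 probes for these 10 genes out of 56593 probes and 22909 genes. Of the 14 probes, 12 were well above the local background on both arrays, which gave 9 of the 10 genes a ratio. Rel was the gene without a ratio.

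RNA of whole colon was measured on 2 Agilent mouse expression arrays, 1 for each genotype. The mice were 8 weeks old and on a C57BL/6 background. The control group carried the Villin-Cre transgene alone, and the EP4 cKO group carried the same transgene together with floxed alleles of Ptger4, which encodes the prostaglandin E2 receptor EP4. Villin-Cre is active in the intestinal epithelium, so the deletion was aimed at the epithelium. Whether the other cells of the colon wall kept an intact Ptger4 was not measured here. RNA from 3 pools was combined on each array. With 1 array for each genotype, no test, standard deviation or p-value could be given, and every difference below is a difference between 2 arrays.

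NF-kappaB acts as dimers of its subunits. In resting cells I-kappaB proteins hold the dimers in the cytoplasm, and ligands such as tumour necrosis factor, interleukin-1 or bacterial products activate a kinase complex that marks I-kappaB for degradation and frees the dimers to enter the nucleus. Many genes switched on in this way encode inhibitors of the pathway itself, among them Nfkbia and Tnfaip3, and in the colon the pathway is known both for inflammation and for the upkeep of the epithelial barrier.

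Promoter sequences of the family were searched for the letters that NF-kappaB dimers are known to bind. Rela is shown although it held no match, and Bcl3, whose match lay after its start, is not shown. The RefSeq promoter table for build GRCm38.p6, which holds 250 bases before and 50 bases after each start, matched 7 of the 10 genes in 10 windows. Nfkb1, Relb and Nfkbiz were not matched. The 150 bases before the start are given 5′ to 3′ along the gene's own strand, in lower case, and capitals mark matches to the kappaB consensus on either strand, with overlapping matches joined.
Nfkbia, chr12:55492648-55492797, minus strand: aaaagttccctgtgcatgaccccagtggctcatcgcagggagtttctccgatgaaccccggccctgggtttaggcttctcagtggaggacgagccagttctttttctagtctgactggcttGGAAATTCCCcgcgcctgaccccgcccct
Tnfaip3, chr10:19015411-19015560, minus strand: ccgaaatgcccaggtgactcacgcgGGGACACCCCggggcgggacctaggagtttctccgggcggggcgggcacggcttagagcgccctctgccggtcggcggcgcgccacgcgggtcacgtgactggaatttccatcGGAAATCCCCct
Nfkbie, chr17:45555550-45555699, plus strand: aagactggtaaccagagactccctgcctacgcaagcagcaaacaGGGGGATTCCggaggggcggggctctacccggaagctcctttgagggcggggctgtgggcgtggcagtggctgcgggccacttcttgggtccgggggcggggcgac
Nfkb2, chr19:46304587-46304736, plus strand: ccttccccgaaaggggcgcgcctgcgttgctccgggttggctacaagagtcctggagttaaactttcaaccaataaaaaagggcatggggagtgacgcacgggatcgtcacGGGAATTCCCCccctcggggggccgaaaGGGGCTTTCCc
Rel, chr11:23770970-23771119, minus strand: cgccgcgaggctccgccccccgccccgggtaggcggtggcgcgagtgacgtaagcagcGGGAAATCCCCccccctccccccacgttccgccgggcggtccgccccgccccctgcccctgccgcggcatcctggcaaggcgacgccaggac
Rela, chr19:5637391-5637540, plus strand: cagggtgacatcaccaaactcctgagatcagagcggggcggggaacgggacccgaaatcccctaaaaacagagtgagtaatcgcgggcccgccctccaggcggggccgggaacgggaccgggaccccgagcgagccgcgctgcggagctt

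The kappaB consensus, a stretch of 10 bases, was found in the windows of 6 of the 7 genes (85.7%), against 1388 of 27025 genes in the whole table (5.14%). Nfkbia, the classical I-kappaB alpha, held GGGAATTTCC on the opposite strand at positions -29 to -20. Tnfaip3, which encodes the ubiquitin-editing enzyme A20, held GGGACACCCC at -125 to -116 and GGGGATTTCC, on the opposite strand, at -12 to -3. These matches were in the upstream of its 2 windows, and the other window held none.

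Nfkbie held GGGGGATTCC at -106 to -97. In Nfkb2, overlapping matches on the 2 strands covered -39 to -29 and a further match, GGGGCTTTCC, lay at -11 to -2, and its other windows held matches as well. The Rel promoter held overlapping matches over -92 to -82, although the Rel probe was dim in these colons. Bcl3 held GGGACTTCCC on the opposite strand, 3 to 12 bases after its start. Rela held no match in its window.

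Other motifs were searched on both strands as well. The looser form GGGNNNNNCC was found in all 7 genes, but 53.5% of all genes held it. The palindrome TTCNNNGAA, bound by STAT factors, was found in 1 of 7 genes, as TTCCCCGAA at -148 to -140 of Nfkb2, against 9.55% of all genes. The interferon-response core GAAANNGAAA was found in 0 of 7, against 3.99%. A match describes letters only, and binding was not measured here.

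Signals are the software's processed signals after each array was scaled to a trimmed mean of 2500, and a ratio is EP4 cKO over Villin-Cre on the log2 scale. The error given with a ratio is the scanner software's own error of the spots. It covers the reading of 1 hybridisation and not the spread between mice or RNA pools. Each probe of the family had 1 spot, so this error was not measured from repeated spots. For bright probes such as Nfkbia it was about 10% of the signal on each array, or 0.20 for the ratio. Probes spotted 8 times or more had a smaller spread within a slide, a median SD of 0.035. Signals of different probes cannot be compared with each other, so the ratios compare each probe only with itself on the other array. Where a summed signal of a marker list is given, it describes that list on each array and ranks none of its genes.

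Among the subunits, Relb was the gene with a higher signal on the EP4 cKO array, and Nfkb1, Nfkb2 and Rela, by their brightest probes, were within their error of no difference. None of the 4 measured subunits passed the 2-fold threshold used in the study's methods. Rela encodes p65, the transactivating subunit of the canonical dimer. Its brighter probe gave a signal of 22968 with Villin-Cre and 21675 with EP4 cKO, a log2 ratio of -0.08 ± 0.20. The dimmer Rela probe gave 117, not well above background, and 89.5, well above background, and no fold is given for it.

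Nfkb1 encodes p105, which is processed to the p50 subunit. Its signal was 417 in Villin-Cre and 409 in EP4 cKO, with a log2 ratio of -0.03 ± 0.23, and probes of similar brightness had a median of -0.24. Nfkb2 encodes p100, the precursor of p52 in the non-canonical branch. Its brighter probe gave 5266 and 4853, a log2 ratio of -0.12 ± 0.20, and its dimmer probe gave 1574 and 1184, a log2 ratio of -0.41 ± 0.21. The probes of Nfkb2 both pointed lower, with the dimmer probe further from 0 than its error. Probes of similar brightness to that dimmer probe had a median log2 ratio of -0.19.

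Relb encodes the partner of p52 in the non-canonical dimer. Its brighter probe gave 6629 in Villin-Cre and 8479 in EP4 cKO, a log2 ratio of 0.36 ± 0.20, or 1.28-fold. Its dimmer probe gave 1091 and 1531, a log2 ratio of 0.49 ± 0.21, or 1.40-fold. Both Relb probes thus pointed higher by more than the error of the reading, and 16.4% of all genes had a higher ratio than Relb. Rel encodes c-Rel, a subunit known mainly from lymphocytes. The Rel probe gave 31.6 and 39.6 and was not well above background on the Villin-Cre or the EP4 cKO array, so no fold is given.

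The other 5 genes, the inhibitors Nfkbia, Nfkbie and Tnfaip3 and the atypical nuclear I-kappaB genes Nfkbiz and Bcl3, are called regulators here. The regulators were all higher on the EP4 cKO array by their brightest probe. Nfkbiz, Tnfaip3 and Nfkbia were more than 1.5-fold higher, Bcl3 was 1.35-fold higher and Nfkbie was 1.11-fold higher. None passed the 2-fold threshold, so no member of the family is counted as risen or fallen.

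Nfkbia encodes I-kappaB alpha, which binds and retains Rela-containing dimers and is resynthesised when they are active. Its signal was 21845 in Villin-Cre and 35693 in EP4 cKO, a log2 ratio of 0.71 ± 0.20, or 1.63-fold. Tnfaip3 gave 6096 and 10757, a log2 ratio of 0.82 ± 0.20, or 1.76-fold. A20, its product, removes ubiquitin chains from signalling intermediates between the receptors and the kinase complex. Both genes stood above the error of the reading, and 7.89% of all genes had a higher ratio than Nfkbia and 6.62% a higher ratio than Tnfaip3.

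Nfkbiz encodes I-kappaB zeta, a nuclear protein that works with p50 on a subset of target genes. Its 2 probes differed. The brighter gave 1145 in Villin-Cre and 2137 in EP4 cKO, a log2 ratio of 0.90 ± 0.21, or 1.87-fold, whereas the dimmer gave 622 on each, a log2 ratio of 0.00 ± 0.22. The mean of the 2 probes was 0.45, short of 1.5-fold, so the place of Nfkbiz at the top of the family rests on its brighter probe. Where the probes lie in the transcript was not determined here.

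Bcl3 encodes a nuclear I-kappaB protein that binds p50 and p52 homodimers. Its signal was 19279 in Villin-Cre and 26112 in EP4 cKO, a log2 ratio of 0.44 ± 0.20. Nfkbie encodes I-kappaB epsilon, which like I-kappaB alpha retains dimers in the cytoplasm. It gave 289 and 322, a log2 ratio of 0.16 ± 0.25, which is within the error of the reading. Probes of similar brightness had a median of -0.30. Scaling to the 75th percentile or to a trimmed mean over all spots gave Nfkbie 0.31 and 0.29. Normexp background correction with quantile normalization gave 0.34, and loess gave 0.45. These alternative values exceed 0.25.

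**Figure D1:**
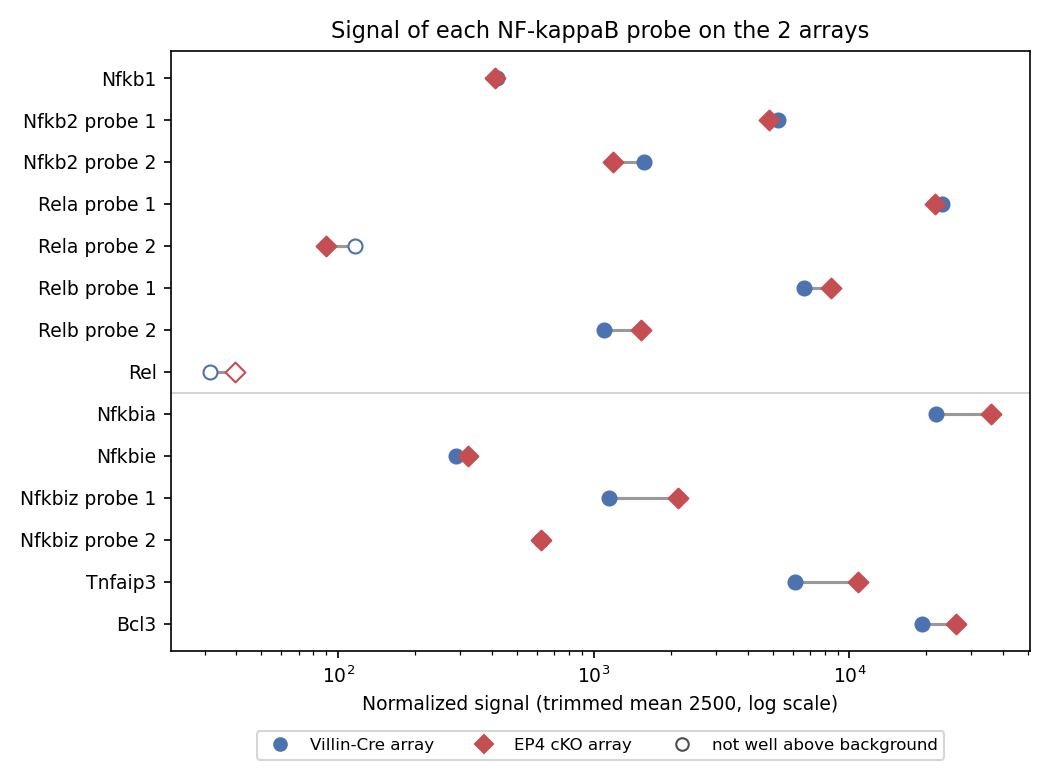
Normalized signal (log axis, arrays scaled to a trimmed mean of 2500) of the 14 probes of the family on the Villin-Cre array (circles) and the EP4 cKO array (diamonds), with open symbols for signals not well above background; a grey line joins the 2 values of a probe, and the thin horizontal line parts subunits from regulators. The pairs lie close together for Nfkb1 (417 and 409) and lie furthest apart for the brighter Nfkbiz probe (1145 and 2137).

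**Figure D2:**
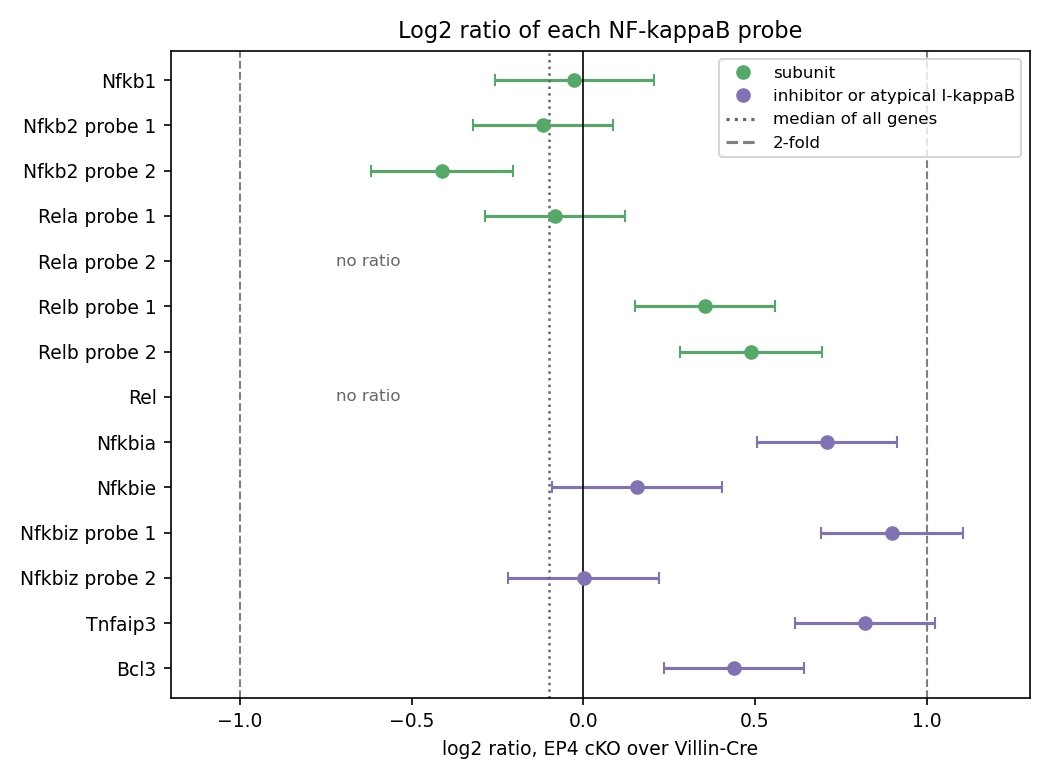
Log2 ratio, EP4 cKO over Villin-Cre, of each probe of the family, with bars for the scanner software's error of the ratio, a dotted line at the median of all genes (-0.10) and dashed lines at 2-fold; 2 probes have no ratio. The regulators' brightest probes lie from 0.16 to 0.90, and no point lies past a dashed line.

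No measured member of the family passed 2-fold under the scaling used here, although Nfkbiz did under scaling to the 75th percentile (1.06), a trimmed mean over all spots (1.03) and loess (1.06). Nfkb1, Rela and Nfkb2 lay in the middle of all genes, with 44.3%, 48.7% and 51.4% of genes above them. Of the 9 genes with a ratio, 0 were more than 2-fold higher, where 4.86% of all 14669 genes with a ratio were, and 0 were more than 2-fold lower, where 7.87% of all genes were. At 1.5-fold, 3 of the 9 were higher (Nfkbiz, Tnfaip3 and Nfkbia) against 9.84% of all genes, and 0 were lower against 18.6%. The median log2 ratio of the 9 genes was 0.36, that of all genes was -0.10, and 8 of the 9 lay above the median of all genes. Nfkb2 was the exception, at -0.12.

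Within the family the 5 regulators lay higher than the subunits by their medians. The 4 measured subunits ranged from -0.12 to 0.36, with a median log2 ratio of -0.05. The 5 regulators ranged from 0.16 to 0.90, with a median of 0.71. The medians differed by 0.76, but by 0.48 with the mean of a gene's probes, where the median of the regulators was 0.45. The ranges of the 2 roles overlapped, because Relb lay above Nfkbie.

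**Figure D3:**
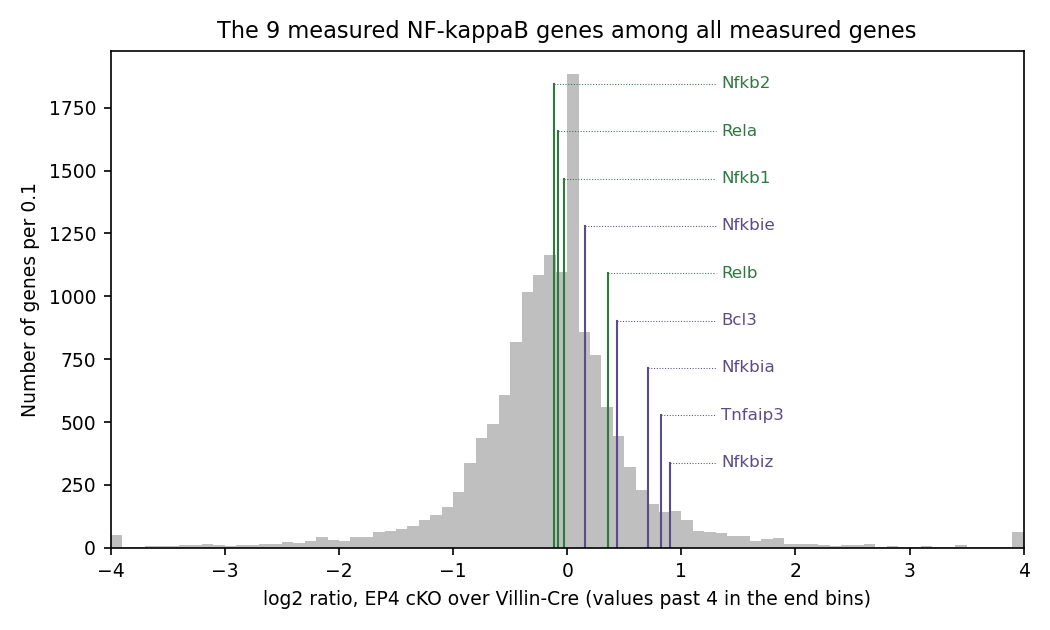
Number of genes in each 0.1-wide interval of the log2 ratio, EP4 cKO over Villin-Cre, for all 14669 genes with a ratio, with vertical lines at the 9 measured members of the family (green for subunits, purple for regulators); values past 4 are in the end intervals, and the tall interval just above 0 includes 907 genes dim on 1 array whose fold bound did not pass 1. Nfkb2, Rela and Nfkb1 lie near the peak, and Nfkbia, Tnfaip3 and Nfkbiz lie on the upper shoulder, with between 5.84% and 7.89% of genes above each.

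The level of every ratio depended on how the arrays were scaled. The 3 subunits below 0 turned positive when the arrays were scaled to their 75th percentile or to a trimmed mean over all spots, where the 4 subunits ranged from 0.04 to 0.51 and from 0.01 to 0.49. The 5 regulators were above 0 under each of the 8 alternatives that give ratios. Scaling to the E1A control spots, whose raw signals before any scaling were 1.59 times brighter on the Villin-Cre array, moved the median of probes bright on both arrays by 1.04. Under it 7 of the 9 genes were more than 2-fold higher, where 39% of all genes were.

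**Figure D4:**
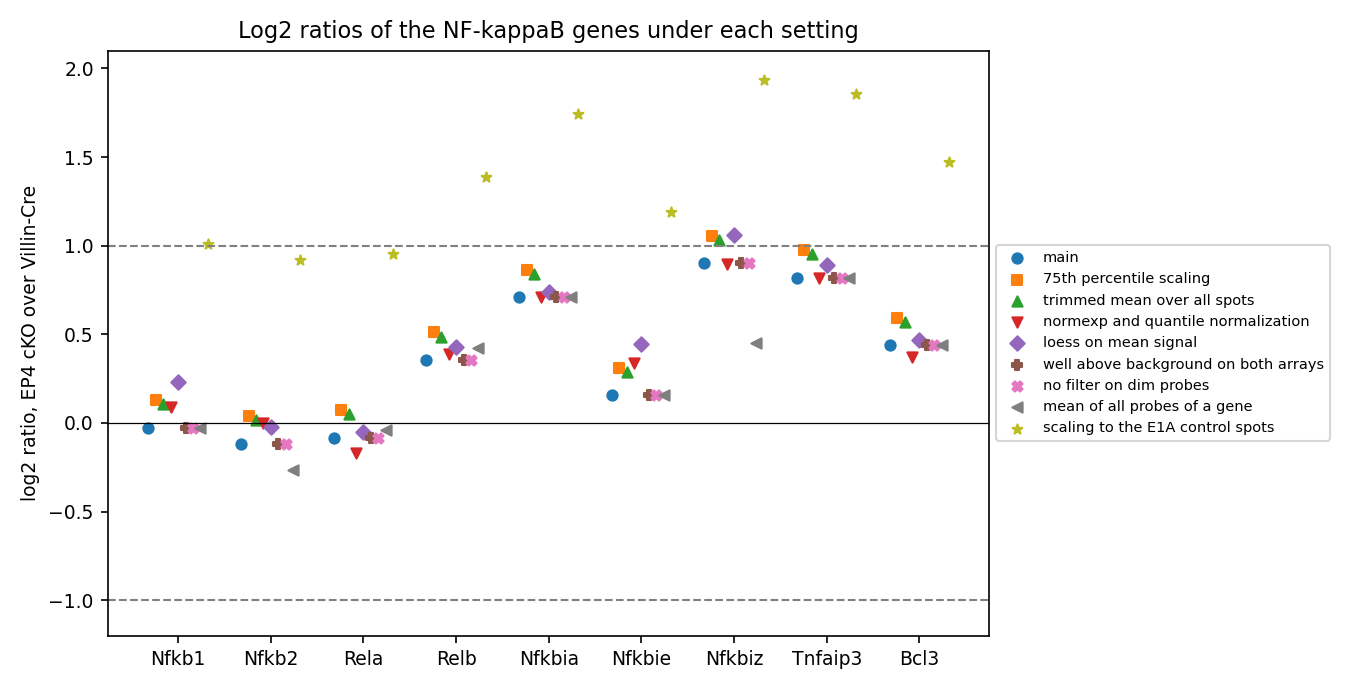
Log2 ratio, EP4 cKO over Villin-Cre, of the 9 measured members of the family under the main processing and 8 alternatives, with dashed lines at 2-fold. Scaling to the E1A control spots lifts every gene, Nfkbiz to 1.94 and Rela to 0.95, while Nfkbia, Nfkbiz and Tnfaip3 stay above Nfkb1, Nfkb2 and Rela under each.

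The other genes of the pathway were grouped by role. Ligands were mostly dim, with 7 of 12 having a ratio. Of these, 2 rose and 1 fell, beside 4.86% and 7.87% of all genes past 2-fold in each direction. Both that rose were dim on the Villin-Cre array. Of the 3 ligands well above background on both arrays 0 rose and 1 fell, beside 4.03% and 6.23% of all genes under that filter. The median log2 ratio was 0.01, which is the value of the brighter probe of Tnf, named after its values were seen, and it was 0.54 with the mean of a gene's probes and 0.40 under loess. The probes of Tnf differed, the brighter giving 472 and 477 and the dimmer 57.7, not well above background, and 262. Tnfsf13b, the B cell survival factor BAFF, is a ligand of the non-canonical branch. It gave 119, not well above background, in Villin-Cre and 667 in EP4 cKO, at least 5.32-fold higher. This bound is 2.41 on the log2 scale, against 1.44 under normexp with quantile normalization. Il1b, which encodes interleukin-1 beta, gave 88.4, not well above background, and 431, at least 3.44-fold higher. Its bound is 1.78 on the log2 scale, against 1.12 under normexp with quantile normalization. Il18, an epithelial cytokine of the interleukin-1 family, fell 2.82-fold, from 72176 to 25559, but did not pass 2-fold under E1A scaling (-0.46).

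Among the receptors 16 of 18 genes had a ratio, 3 rose and 0 fell, beside 4.86% and 7.87% of all genes, with a median log2 ratio of 0.03. Over the 14 well above background on both arrays, 2 rose, beside 4.03% of all genes under that filter, and the median of the receptors was -0.10. Tnfrsf1b, the TNF receptor TNFR2, gave 279 in Villin-Cre and 857 in EP4 cKO, a log2 ratio of 1.62. Tlr3, a receptor for double-stranded RNA, gave 182 and 395, a log2 ratio of 1.12, and its mean over probes was 0.86. Nod2, a sensor of bacterial peptidoglycan, gave 25.6, not well above background, and 269, at least 2.15-fold higher. Under normexp background correction and quantile normalization, Tlr3 (0.90) and Nod2 (0.90) no longer passed 2-fold.

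Kinases and adaptors link the receptors to I-kappaB. Of 31 genes 30 had a ratio, 1 rose and 3 fell, close to the 4.86% and 7.87% of all genes, with a median log2 ratio of -0.01. Tbk1, an I-kappaB kinase-related kinase, rose from 771 to 1788, a log2 ratio of 1.21. Traf1, an adaptor of TNF receptors, fell from 1806 to 368, a log2 ratio of -2.30. Card10, a scaffold that joins membrane receptors to Bcl10 and Malt1, fell from 3047 to 1171, a log2 ratio of -1.38, but did not pass 2-fold under E1A scaling (-0.34).

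Ikbkg encodes NEMO, the regulatory subunit of the I-kappaB kinase complex, and its probes differed. The brightest fell from 974 to 381, a log2 ratio of -1.36 (-0.32 under E1A scaling and -0.91 under normexp with quantile normalization), whereas the next gave 512 and 518, a log2 ratio of 0.02. The mean over its probes was -0.51. The catalytic subunits of the complex, named here after their values were seen, gave log2 ratios of 0.57 (Chuk) and -0.13 (Ikbkb) by their brightest probes, short of 2-fold.

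Ubiquitin regulators and other inhibitors all had a ratio, 25 of 25, of which 3 rose and 0 fell, beside 4.86% and 7.87% of all genes. The median log2 ratio was 0.09, or -0.01 with the mean of a gene's probes. Pdlim2, which promotes the degradation of nuclear p65, rose from 3853 to 17697, a log2 ratio of 2.20. Zc3h12a, the ribonuclease Regnase-1 that degrades inflammatory transcripts, rose from 287 to 1147. Tnip3, a partner of A20, rose from 932 to 3064, a log2 ratio of 1.72. The other cytoplasmic and nuclear I-kappaB genes, Nfkbib (-0.10) and Nfkbid (-0.51), were named after their values were seen and did not pass 2-fold.

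Of 32 target genes 20 had a ratio, 6 rose and 1 fell, beside 4.86% and 7.87% of all genes, and the median log2 ratio was 0.62. Over the 15 that were well above background on both arrays, 3 rose and 1 fell, and the median was 0.30. Cxcl10, a chemokine for T cells that is also induced by interferon, rose 9.45-fold, from 308 to 2915. Ccl2, a monocyte chemokine, gave 51.2, not well above background, and 531, at least 4.24-fold higher. Saa3, an acute-phase protein, gave 31.8, not well above background, and 455, at least 3.63-fold higher. On the log2 scale the bounds of Ccl2 and Saa3 are 2.08 and 1.86, against 1.55 and 1.25 under normexp with quantile normalization.

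The remaining 3 target genes that rose, named after their values were seen, were Nos2, the inducible nitric oxide synthase, with a log2 ratio of 1.82, Irf1, an interferon-regulated transcription factor, with 1.36, and Lcn2, an antimicrobial siderophore-binding protein, from 120, not well above background, to 356. Cd83, a marker of activated dendritic cells and lymphocytes, fell from 1505 to 464, a log2 ratio of -1.70, but did not pass 2-fold under E1A scaling (-0.66). Over the settings tried other than the E1A scaling, the median of the target genes ran from 0.29 without a filter on dim probes to 0.77 with scaling to the 75th percentile. The kappaB consensus was found in 9 of the 21 target genes with a promoter in the table (42.9%), against 5.14% of all genes. The other lists also lay above 5.14%, from 10% of ligands to 26.3% of ubiquitin regulators and other inhibitors. Whether genes with a match had higher ratios was not tested.

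**Figure D5:**
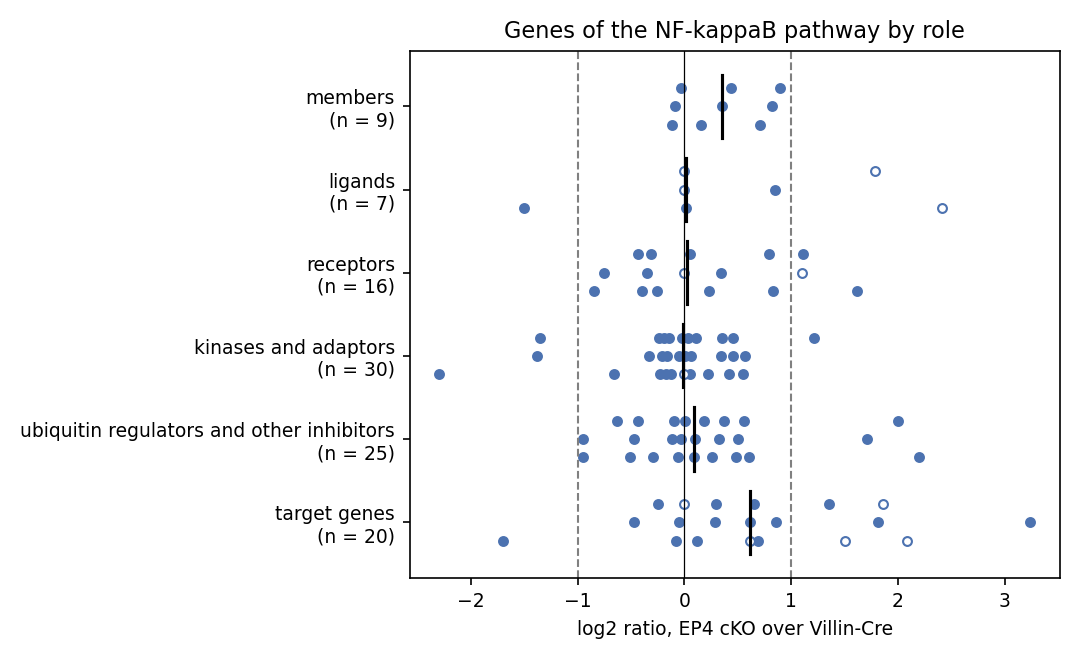
Log2 ratio, EP4 cKO over Villin-Cre, of each gene with a ratio in the family and in 5 role lists, with open circles for bounds, black bars at list medians and dashed lines at 2-fold. The family's median (0.36) lies between that of the target genes (0.62) and those of the other lists (-0.01 to 0.09), an order that changes with the mean of a gene's probes (ligands 0.54, family 0.42, targets 0.40) and with probes well above background on both arrays (targets 0.30, family 0.36) or with no filter on dim probes (targets 0.29, family 0.34).

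Other cell types of the colon wall also express these genes. In RNA of a whole tissue, fewer cells of a type and less RNA per cell cannot be told apart. Counts of markers past 2-fold stand beside 4.86% of all genes higher and 7.87% lower. All 9 epithelial markers were well above background on both arrays, with a median log2 ratio of 0.05 and 1 past 2-fold (Krt20, 1.80). Of the 6 macrophage and monocyte markers, 4 were well above background on both arrays and none passed 2-fold by its brightest probe, with a median log2 ratio of 0.19. They did not move together, with Cd14 at 0.88, Itgam at 0.48, Cd68 at -0.09 and Csf1r at -0.79. The dimmer Cd14 probe was past 2-fold, at 1.05, and the dimmer Csf1r probe was at -0.34. The dimmer Itgam probe gave 145, not well above background, and 84.1. The summed signal of the macrophage and monocyte markers, 63156 in Villin-Cre and 87425 in EP4 cKO, includes the brighter Itgam probe at 49347 and 68598. Adgre1 and Lyz2 were the 2 markers not well above background.

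Of the neutrophil markers, S100a9 rose 2.39-fold and S100a8 was at least 2.83-fold higher, with a summed signal of 399 and 1055. Under normexp with quantile normalization the log2 ratios of S100a9 and S100a8 were 1.03 and 1.03. Cxcr2 was not well above background, and Ly6g had no probe assigned here. T cell markers were well above background for 6 of 6 genes, with a median log2 ratio of -0.06 and 1 past 2-fold (Cd3g, 1.28, or 0.87 under normexp with quantile normalization). They did not move together, with Cd2 at 0.91, Cd247 at -0.50 and the probes of Cd3d at -0.79 and 0.90. Their summed signal, 23637 and 18324, includes the brightest Cd247 probe at 17305 and 12254. None of the 5 B cell markers was well above background on the Villin-Cre array, 3 were on the EP4 cKO array, and their summed signal was 336 and 459.

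Fibroblast markers moved furthest, with 4 of 5 fallen, beside 7.87% of all genes. Dcn went from 6006 to 110, a log2 ratio of -5.77, and the summed signal of the list went from 12442 to 290. Col1a2 and Col3a1 were at -5.03 and at most -4.81. Under normexp with quantile normalization Dcn, Col1a2 and Col3a1 were at -4.18, -3.33 and -2.97, still past 2-fold. In smooth muscle 1 of 5 markers fell (Cnn1, -2.73, or -1.04 under normexp with quantile normalization), and Myh11 was not well above background. Tagln was at 0.38, and Des gave 30.7, not well above background, and 108. The median log2 ratio of the list was 0.19. The summed signal, 22840 and 33427, includes the brightest Acta2 probe at 18006 and 27719, whereas another Acta2 probe gave 451 and 302. Of the 3 endothelial markers, 1 was well above background on both arrays, with a log2 ratio of -0.18. The part that these cell types, or the make-up of the pieces of tissue, had in the ratios of the NF-kappaB genes was not tested.

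Ptger4, the gene targeted in the EP4 cKO mice, did not separate the arrays by more than 2-fold. The brighter Ptger4 probe gave 6227 in Villin-Cre and 5661 in EP4 cKO, a log2 ratio of -0.14 ± 0.20. The dimmer probe gave 393 and 592, a log2 ratio of 0.59 ± 0.23. Whether these probes lie in the deleted part of the gene is not known here, so they do not check the label, and each direction above is that of the array labelled EP4 cKO.

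The arrays differed in overall brightness. The trimmed mean before scaling was 724 in Villin-Cre and 931 in EP4 cKO, and 45.4% and 51.6% of probes were well above background. No spot was saturated. The median of the ratio also varied with brightness, from -0.55 among the dimmest 10% of probes to -0.04 among the 10% that include the brighter Rela probe and Bcl3. Probes spotted 8 times or more, 278 in all, had a median SD of 0.035 for the log2 ratio over their spots, which is the precision of spotting and reading within a slide.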

How the data were processed

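Whole-colon RNA of 1 Villin-Cre and 1 EP4 cKO sample was hybridised to 2 single-colour Agilent arrays of 62976 spots. The authors deposited scanner output with intensity values, the background-corrected processed signal, its error and the raw medians, and quality flags. The Feature Extraction version was 12.0.3.1 per the file headers and 11.5.1.1 per the labels.

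Outlier spots and control spots were left out, spots of a probe were averaged, and each array was scaled to a trimmed mean of 2500 (2% trimmed at each end), as in the study's methods. A probe not well above background on 1 array was given a bound from the lowest signal among probes well above background there, 125 on the Villin-Cre and 57.8 on the EP4 cKO array. A bound that did not pass 1 was counted at 0. A gene was represented by its brightest probe. Of 56593 probes, 32989 (58.3%) matched a gene by RefSeq accession (GRCm38.p6 annotation).

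The members and lists were chosen with earlier results of these data known. All members and Ptger4 were named, and for each list at most 3 risen and 3 fallen genes, those furthest past 2-fold by the brightest probe. Exceptions are stated where they occur.

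Alternatives were the 75th percentile, a trimmed mean over all spots, normexp (offset 50) on the median spot signals with quantile normalization, loess (span 0.3) of the ratio on signal, stricter and absent filters on dim probes, the mean of a gene's probes, thresholds of 1.5-fold and 3-fold, and E1A scaling. The steps were tested on simulated data. R 4.3.3 with limma 3.58.1 and Python 3.11.15 with numpy 2.4.6, pandas 2.3.3 and statsmodels 0.14.6 were used.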

Additional observations from a re-analysis of the deposited data

How the results depend on the processing

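Of the 9 measured genes, the number more than 2-fold higher was 1 (Nfkbiz) under scaling to the 75th percentile (1.06), a trimmed mean over all spots (1.03) and loess (1.06), against 0 in the report. It was 3 at a threshold of 1.5-fold, and 7 under scaling to the E1A control spots, an alternative chosen after seeing the data, where the median of the family was 1.39. The number more than 2-fold lower was 0 under every alternative, and no result reversed past its threshold. Over all genes, the report counts 713 past 2-fold upward and 1154 downward, against 937 and 906 under the 75th percentile, 901 and 943 under the trimmed mean over all spots, 1117 and 758 under loess, 588 and 404 under normexp with quantile normalization, 1169 and 7213 with no filter on dim probes, and 5719 and 331 under E1A scaling. The median of probes well above background on both arrays moved by 0.16, 0.13, 0.18, 0.14 and 1.04 under the 75th percentile, the trimmed mean over all spots, loess, normexp with quantile normalization and E1A scaling. The medians of regulators and subunits differed by 0.66 under normexp with quantile normalization, 0.63 under loess and 0.48 with the mean of a gene's probes. Past 2-fold in the report but not under E1A scaling were Il18, Card10, Ikbkg and Cd83, and under normexp with quantile normalization Ikbkg (-0.91), Cd3g (0.87), Tlr3 (0.90) and Nod2 (0.90), and with the mean of a gene's probes Ikbkg (-0.51) and Tlr3 (0.86). The causes of these shifts were not tested. With 1 array for each genotype no array could be left out. No paired analysis was possible because each genotype has 1 array. Rel and the dimmer Rela probe were limited by signal over background.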
